A study of Mus musculus with 26 samples.

Results

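The comparison covers macrophages sorted from pancreatic islets of female NOD/ShiLtJ (NOD) mice, 3 libraries from mice aged 12 weeks against 4 libraries from mice aged 8 weeks. These 7 libraries were taken by their labels, with every gene, from a series of 26 RNA-seq libraries of islet macrophages from NOD and C57BL/6J (B6) mice of several ages, all female. NOD libraries from mice aged 2 and 4 weeks, 4 of each, and 4 B6 libraries from mice aged 12 weeks are used beside them. The remaining libraries, 3 from B6 mice aged 2 weeks and 4 from B6 mice aged 4 weeks, enter the fit of all 26 and so its estimate of spread. NOD is an inbred strain whose females develop autoimmune diabetes without any treatment, and no agent or engineered allele is named for either group. Islets were dispersed without enzyme, and live cells that were B220-, CD90-, CD45+, F4/80+ and CD11c+ were sorted. Each library pools islet cells from 6 to 14 mice, and the RNA was amplified into cDNA with a SeqPlex kit. The labels do not say whether libraries of one age came from separate pools of mice or separate sorts, so p-values measure the spread between these libraries, which may be partly technical. The question addressed is which macrophage transcripts change late, once islets are inflamed.

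Islet macrophages are the main resident myeloid cells of a healthy islet. They depend on signalling through the receptor Csf1r, sit beside capillaries and beta cells, take up beta-cell granule material and present antigen on MHC class II. In NOD mice, leukocytes gather around and then inside the islets over the weeks before diabetes, and the infiltrate can organise into lymphoid-like aggregates in which B cells and T cells lie in separate zones. Chemokines place cells in such aggregates: Cxcl13, the ligand of Cxcr5, draws B cells and follicular helper T cells.

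The sorted cells carried the markers of their label at both ages. In CPM (a gene's reads per 1e+06 reads of the library after trimmed-mean scaling), Adgre1, which encodes F4/80, lay at 320 to 355 at 8 weeks and at 286 to 359 at 12 weeks. Itgax, which encodes CD11c, lay at 841 to 941 and at 734 to 963, and Ptprc, which encodes CD45, at 956 to 1175 and at 876 to 1338. Xist, transcribed from the inactive X of female cells, was at 1177 CPM or more in all 7 libraries, and Ddx3y of the Y chromosome had at most 2 reads. Total counts were 10631675 to 12884619 per library at 8 weeks and 7187506 to 10502204 at 12 weeks. The 12 week libraries had more genes with at least 1 read, 23018 to 26491 against 21059 to 23310, and were less alike, with Spearman correlations across genes of 0.904 to 0.936 among themselves against 0.944 to 0.956 among the 8 week libraries.

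Few genes differed. In edgeR's quasi-likelihood test fitted on all 26 libraries, 20 of 19703 genes tested passed an adjusted p (Benjamini-Hochberg) of 0.05, which is 0.102% of them. Of these, 1 gene (0.00508%) rose and 19 (0.0964%) fell from 8 to 12 weeks. Without adjustment, 1199 genes (6.09%) had p under 0.05. The 1 gene that rose was Cxcl13, and the largest falls were those of the histone deacetylase gene Hdac9, the macrophage elastase gene Mmp12 and the chemokine gene Ccl9. With upper-quartile scaling the count was 11, of which 2 were higher and 9 lower. It was 146 in a fit of the NOD libraries only (16 higher, 130 lower). With the 2 compared groups alone it was 728 (362 and 366), and with limma-voom, another method, 1959 (1397 and 562). On simulated counts for this comparison 8 of 50 genes changed 2-fold were recovered, so a gene not called may still differ.

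**Figure D1:**
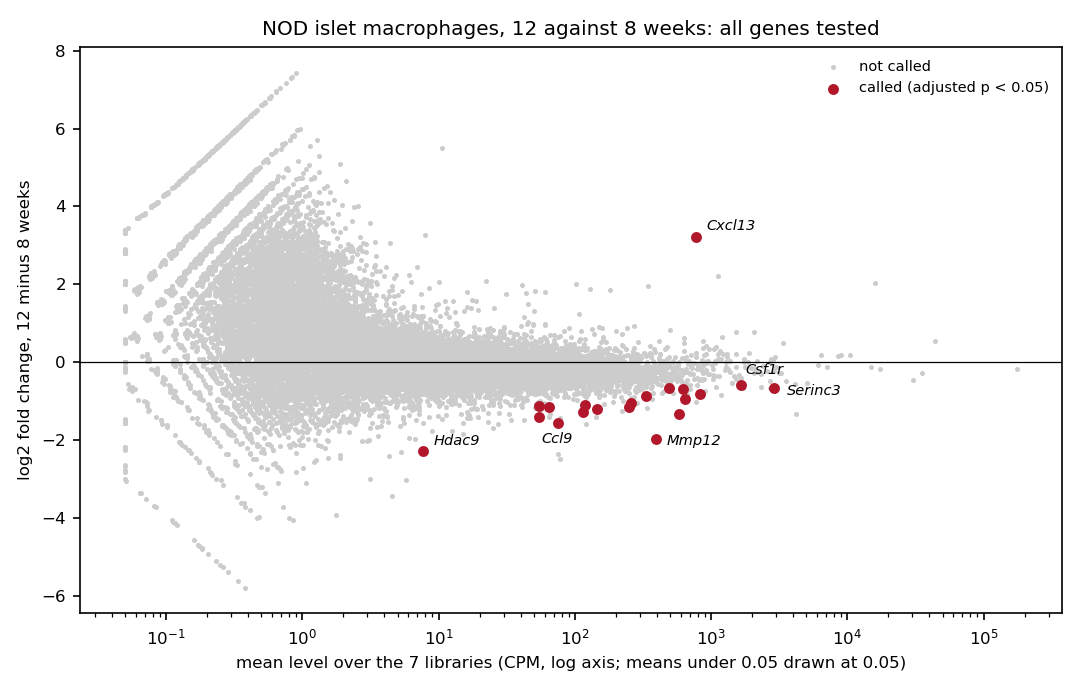
Each point is 1 of the 19703 genes tested, with its mean level over the 7 libraries in CPM on a log axis (x) and its log2 fold change, 12 minus 8 weeks (y). Red points are the 20 genes that passed an adjusted p of 0.05; Cxcl13 stands alone above 0 and the other 19 lie below it, while the uncalled genes of low level spread mostly upward.

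Cxcl13 rose 9.34-fold. Its level was 145, 131, 223 and 173 CPM in the 4 libraries at 8 weeks and 1138, 1186 and 2386 CPM in the 3 libraries at 12 weeks. The groups did not overlap, and the lowest 12 week library lay well above the highest 8 week library. The log2 fold change was 3.22 ± 0.31 (standard error), with an adjusted p of 3.73e-07 in edgeR's quasi-likelihood test. It was called in all 7 fits that each left out 1 of these libraries, with a largest adjusted p of 2.4e-05 by edgeR.

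At earlier ages the gene was close to silent. Cxcl13 lay at 1.87 to 3.62 CPM in the 4 NOD libraries at 2 weeks and at 2.73 to 5.05 CPM in the 4 at 4 weeks. In B6 mice aged 12 weeks, a strain that does not develop autoimmune diabetes, the 4 libraries lay at 3.25 to 8.59 CPM. From 4 to 8 weeks the log2 fold change of Cxcl13 in NOD was 5.41 ± 0.34, and from 8 to 12 weeks it was 3.22 ± 0.31; both use the 8 week libraries, so they are not independent. From 4 to 8 weeks 169 genes (0.858%) passed, 135 higher (0.685%) and 34 lower (0.173%). In bulk RNA, more cells of a kind that makes a transcript and more transcript per cell cannot be told apart, and this holds for each gene below.

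Because Cxcl13 carries the rise, the bases before its start are shown, from RefSeq on GRCm38.p6: 150 bases at chr5:95956789-95956938, plus strand, 5′ to 3′, with a TATA box in capitals.

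Cxcl13: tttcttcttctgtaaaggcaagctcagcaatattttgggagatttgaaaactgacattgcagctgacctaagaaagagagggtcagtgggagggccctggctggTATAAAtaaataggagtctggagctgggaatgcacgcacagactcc

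The TATA box, searched as TATAAA on both strands, begins 46 bases before the listed start and occurs in 13.6% of the 32851 promoters of the same length in the table. None of the other motifs searched (the STAT site TTCNNNGAA, the interferon-stimulated response element, the NF-kB site, the AP-1 site TGACTCA, the CRE TGACGTCA, the E2F sites TTTCCCGC and TTTGGCGC, and the sterol element) was found in the window of 250 bases before to 50 after this start. That says only that these letters are absent from this window.

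The 19 genes that fell did so by 1.49-fold to 4.87-fold, and in each of them every 12 week library was below every 8 week library. Across all genes tested, 17.9% had groups that did not overlap, 8.41% in the lower direction. For 18 of the 19, all but Xylt1, the 3 libraries at 12 weeks were also below all 12 other NOD libraries, at 2, 4 and 8 weeks. This holds for 558 genes tested (2.83%), beside 1657 in which the 12 week libraries lay below all 8 week libraries. The genes were called against the 8 week libraries, so part of this was set by the selection. For 18 of the 19, all but Lrp1, the 12 week libraries were below all 4 B6 libraries at 12 weeks, which holds for 7.59% of all genes tested.

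**Figure D2:**
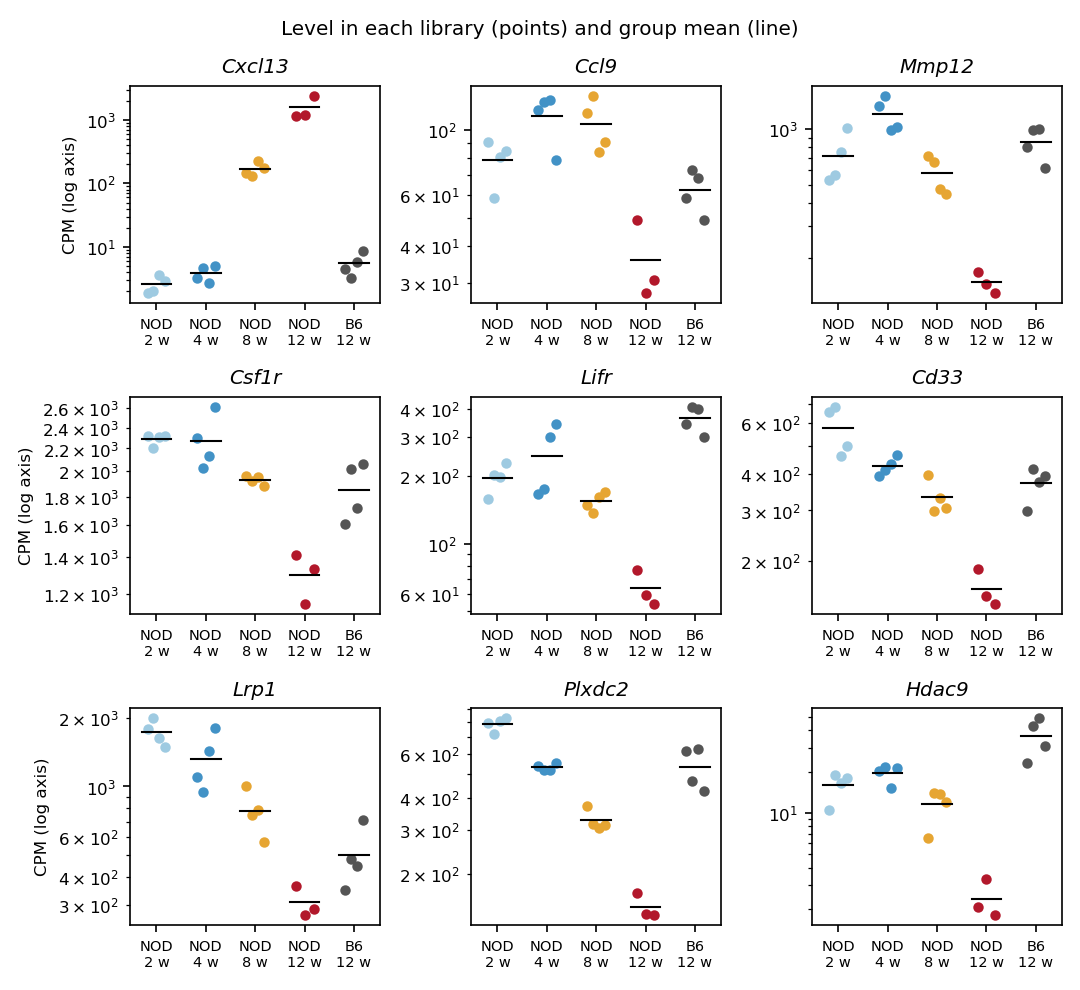
Level of 9 of the called genes in each library (points, CPM on a log axis) with the group mean (line), for NOD mice at 2, 4, 8 and 12 weeks and B6 mice at 12 weeks. Cxcl13 is highest in the NOD 12 week libraries; the other 8 genes are lowest there among the NOD ages.

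Among secreted products, Mmp12, a macrophage elastase that cuts elastin and other matrix proteins, fell from 721, 668, 474 and 448 CPM at 8 weeks to 170, 145 and 130 CPM at 12 weeks. All 3 libraries at 12 weeks lay far below the lowest at 8 weeks. The log2 fold change was -1.96 ± 0.24, with an adjusted p of 2.25e-05 in edgeR's quasi-likelihood test, and it was called with any 1 of the 7 libraries left out. Mmp12 had lain at 988 to 1516 CPM at 4 weeks, and B6 mice at 12 weeks had 616 to 1007 CPM.

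Ccl9, a chemokine that attracts Ccr1-bearing myeloid cells, was at 114, 131, 84.2 and 90.9 CPM at 8 weeks and at 49.1, 27.6 and 30.6 CPM at 12 weeks. Its log2 fold change was -1.55 ± 0.26 (adjusted p = 0.00421, edgeR), whereas from 4 to 8 weeks it was -0.09 ± 0.23 (adjusted p = 1). The 2 chemokines that passed in this comparison thus moved in opposite directions.

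Mmp12 has 2 listed starts, and the bases before the second are shown because an AP-1 site, the motif bound by Fos and Jun proteins, lies there: 150 bases from RefSeq on GRCm38.p6, chr9:7347224-7347373, plus strand, 5′ to 3′, with the AP-1 site in capitals, read here as the reverse complement of TGACTCA.

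Mmp12: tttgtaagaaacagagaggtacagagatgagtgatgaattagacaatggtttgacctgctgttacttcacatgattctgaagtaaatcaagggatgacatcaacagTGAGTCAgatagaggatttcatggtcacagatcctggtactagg

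The site begins 44 bases before that start. Of the 20 called genes, 14 had a promoter in the RefSeq table, and Arap3, Xylt1, Plxdc2, Ndst1, Pmepa1 and Csf1r had none. Of the 21 listed starts of the 14, the AP-1 site was found at 2 (of Mmp12 and Slco2b1) and the STAT site at 3 (of Lrp1 and Slco2b1), against 5.2% and 8.3% of all promoters in the table. An E2F site was found at 1 (of Lrp1), against 1.56%. The TATA box letters were found at 4 (of Cxcl13, Mmp12, Ccl9 and Hdac9), against 13.6%, at any position in the window. Counted from the start, they began at -46 in Cxcl13, -29 in Hdac9, 5 in Mmp12, and -224, -94 and -92 in Ccl9. The interferon-stimulated response element and the NF-kB, CRE and sterol motifs were found at none of the 21, against 3.44%, 0.155%, 1.79% and 0.0913%.

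Of the called genes that encode receptors, Csf1r, the receptor for the macrophage growth factors Csf1 and Il34, was at 1966, 1925, 1958 and 1882 CPM at 8 weeks and at 1410, 1151 and 1334 CPM at 12 weeks. The 8 week libraries lay within a narrow band and every 12 week library was under it. The log2 fold change of Csf1r was -0.57 ± 0.12 (adjusted p = 0.0377, edgeR). This call was lost in each of the 7 fits that left out 1 library, with an adjusted p of up to 0.59 by edgeR.

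Lifr, the receptor subunit for leukemia inhibitory factor, fell from 149, 138, 162 and 170 CPM to 76.4, 59.4 and 53.8 CPM, a log2 fold change of -1.29 ± 0.21 (adjusted p = 0.00279, edgeR). Its B6 12 week libraries lay at 299.6 to 408 CPM, above every NOD library at 8 or 12 weeks. Lrp1, a large endocytic receptor that takes up lipoproteins, proteases and dying-cell material, fell from 1004, 747, 791 and 570 CPM to 365, 271 and 289 CPM. Its log2 fold change was -1.34 ± 0.24 (adjusted p = 0.00948, edgeR), and its B6 12 week libraries, at 351 to 713 CPM, reached into the NOD 12 week range.

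Cd33, a sialic acid-binding receptor of myeloid cells, fell from 398, 298, 330 and 305 CPM to 188, 151 and 142 CPM (log2 fold change -1.05 ± 0.19, adjusted p = 0.00891, edgeR). Plxdc2, a transmembrane protein with a plexin-like domain, fell from 373, 318, 306 and 312 CPM to 169, 139 and 138 CPM. With Mmp12 it was 1 of the 2 falls called in all 7 fits that left out a library. Its log2 fold change was -1.14 ± 0.17 (adjusted p = 0.00096, edgeR), and from 4 to 8 weeks it was -0.70 ± 0.15 (adjusted p = 0.012).

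Of membrane transporters and carriers, Slco2b1, an organic anion transporter, went from 61.0 to 82.3 CPM at 8 weeks to 24.0 to 39.6 CPM at 12 weeks, a log2 fold change of -1.12. Serinc3, a multipass membrane protein, was the most abundant gene that fell. Its 8 week libraries lay at 3296, 3381, 3527 and 3653 CPM and its 12 week libraries at 2400, 1819 and 2300 CPM, with a log2 fold change of -0.67 ± 0.11 (adjusted p = 0.00279, edgeR).

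Of the called genes that encode proteins inside the cell, Arap3, a GTPase-activating protein for small GTPases, fell from 98.9, 66.2, 69.6 and 62.1 CPM to 38.3, 28.7 and 16.2 CPM (log2 fold change -1.42 ± 0.23, adjusted p = 0.00279, edgeR). Dock8, an activator of Cdc42 used in leukocyte migration, fell from 527 to 654 CPM down to 349 to 393 CPM, a log2 fold change of -0.67. Ssh2, a phosphatase that activates the actin-severing protein cofilin, fell from 776 to 850 CPM down to 354 to 491 CPM, a log2 fold change of -0.96. The adaptor Apbb2 and the scaffold protein gene Tanc2 had log2 fold changes of -1.20 and -0.87.

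Xylt1 and Ndst1 both act in building glycosaminoglycans. Xylt1, which adds the first sugar of the chains to a core protein, fell from 73.6 to 103 CPM down to 31.5 to 46.2 CPM, a log2 fold change of -1.16 ± 0.23. Ndst1, which modifies heparan sulfate, fell from 134 to 181 CPM down to 69.3 to 76.4 CPM, a log2 fold change of -1.10 ± 0.22. Their adjusted p values in edgeR's test were 0.0229 and 0.0319.

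The remaining 3 are regulators of transcription and of TGF-beta signalling. Hdac9, a class IIa histone deacetylase, was at 6.55, 14.1, 13.7 and 12.1 CPM at 8 weeks and at 2.05, 3.3 and 1.8 CPM at 12 weeks. It was the least abundant of the called genes, with a log2 fold change of -2.28 ± 0.40 (adjusted p = 0.00637, edgeR). Zfhx3, a zinc finger and homeobox factor, had a log2 fold change of -0.81, and Pmepa1, a TGF-beta target that limits Smad signalling, of -0.68.

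**Figure D3:**
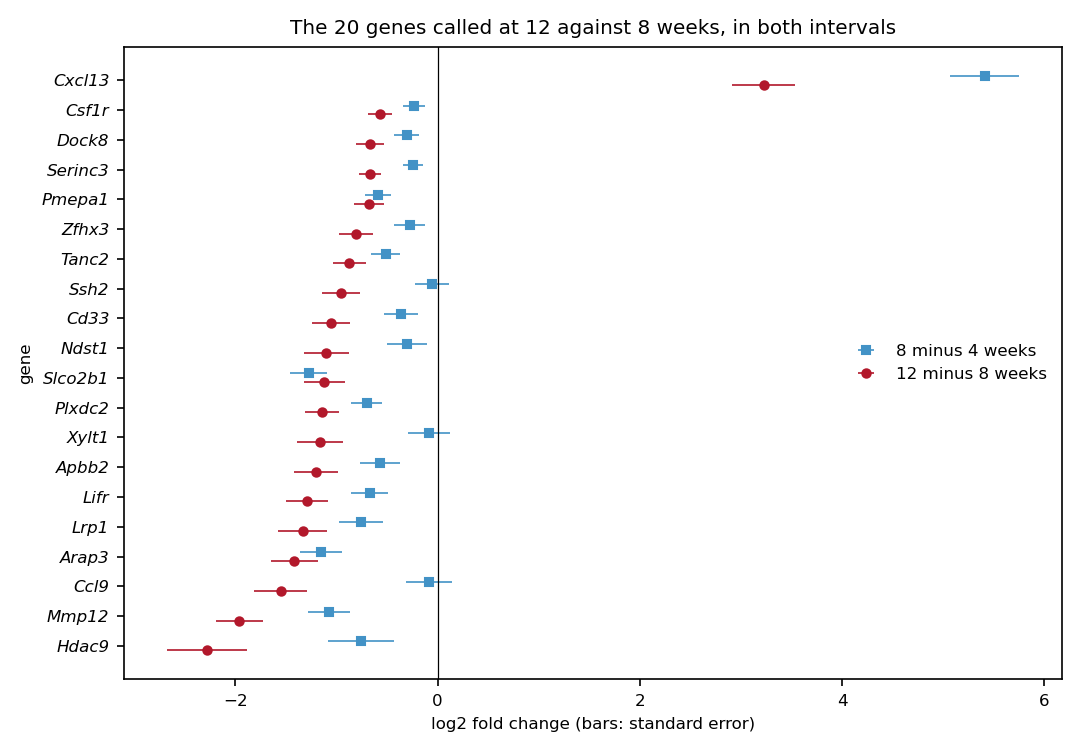
Log2 fold change with its standard error (bars) of the 20 genes called at 12 against 8 weeks (red circles), beside the change of the same genes from 4 to 8 weeks (blue squares). Both intervals use the 4 libraries at 8 weeks; Cxcl13 lies at 3.22 and 5.41, and Ccl9 at -1.55 and -0.09.

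Measures of the libraries moved with the comparison. The median log2 fold change was -0.12 over the 9476 genes with at least 5 CPM in the higher group and 0.71 over the 10227 genes under 5 CPM, so the abundant genes as a whole sat slightly below 0. With relative log expression (RLE) scaling the median of the abundant genes was -0.01, and 12 of the 19 falls stayed called. Among protein-coding genes with a mean of at least 20 CPM, the median was -0.01 for exon lengths up to 2000 bases and -0.22 for those over 8000 bases. The genes that fell had a median exon length of 8279 bases, against 4301 for all protein-coding genes tested. The part of these measures in the falls was not tested.

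The predicted gene Gm10800 also separated the ages, at 3912 to 9280 CPM at 8 weeks and at 22488 to 32296 CPM at 12 weeks, without passing the test (log2 fold change 2.04, adjusted p = 0.337, edgeR). Its levels in the 4 B6 libraries at 12 weeks were 29176 to 79215 CPM. It was chosen after its values were seen, and its part in the other differences was not tested.

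Most calls rested on having all 7 libraries. Of the 19 falls, 17 lost their call in at least 1 fit that left out a library, and none reversed. Without 12 week replicate 2 or 3, 4 and 3 of the 19 stayed called, and without 8 week replicates 1, 2 and 3, 7, 12 and 8 did.

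The spread in this test comes from all 26 libraries, and B6 libraries enter it. When the fit was restricted to the 15 NOD libraries, 146 of 16468 genes passed (0.887%), 16 higher (0.0972%) and 130 lower (0.789%), and all 20 genes above were among them. In 145 of the 146 the groups did not overlap, against 17.9% of all genes tested in the fit of all libraries. The calls came from the same libraries, so this count adds no separate evidence. Where a gene below is given with an adjusted p in the NOD fit, its fold change is from that fit.

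Among the 16 genes that rose in the NOD fit were Cxcl13, Ctss, Ccl8, Itm2b, Cubn, Jchain, Fcgr4, Psmb8, Zan, Nav3, Gngt2, Slc1a3, Loxl3, Fgl2 and Zc3h12d. Ccl8, a chemokine for monocytes and T cells, had 46.2, 24.3, 52.9 and 52.4 CPM at 8 weeks and 167, 137 and 231 CPM at 12 weeks (log2 fold change 2.05, adjusted p = 0.00175 in the NOD fit by edgeR). It was at 0.158 to 1.42 CPM at 4 weeks and at 0.212 to 0.714 CPM in B6 mice at 12 weeks. Like Cxcl13, it was near absent in the B6 libraries of the same age.

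Fcgr4 and Psmb8 belong to the lists of the interferon-gamma response and of MHC class I presentation, and their log2 fold changes were under 1. Fcgr4, an activating receptor for IgG, had 154, 220, 207 and 206 CPM at 8 weeks and 337, 330 and 457 CPM at 12 weeks (log2 fold change 0.96, adjusted p = 0.00448 in the NOD fit by edgeR). Psmb8, a subunit of the immunoproteasome that cuts proteins into peptides for MHC class I, had 164, 194, 166 and 182 CPM and then 273, 313 and 387 CPM (0.92, adjusted p = 0.00385). Neither gene had any overlap between the ages.

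The promoter of Fcgr4 holds an interferon-stimulated response element and that of Psmb8 a STAT site. For each, 150 bases before the start are shown from RefSeq on GRCm38.p6, 5′ to 3′. Fcgr4 is at chr1:171018776-171018925, plus strand, with the interferon-stimulated response element in capitals. Psmb8 is at chr17:34198045-34198194, plus strand, with the STAT site in capitals.

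Fcgr4: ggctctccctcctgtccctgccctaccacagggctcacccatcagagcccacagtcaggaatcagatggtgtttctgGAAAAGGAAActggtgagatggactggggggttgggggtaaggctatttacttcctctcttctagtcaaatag

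Psmb8: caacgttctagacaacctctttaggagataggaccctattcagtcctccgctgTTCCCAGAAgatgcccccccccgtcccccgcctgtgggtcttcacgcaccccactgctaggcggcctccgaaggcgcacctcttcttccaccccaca

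They begin 73 and 97 bases before the respective starts. Such letters occur in 3.44% and 8.3% of all promoters in the table, so a match describes the sequence and is not evidence of binding. The promoter of Ccl8, searched with these, held a TATA box and none of the other motifs.

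Ctss, the protease that trims the invariant chain from MHC class II, rose from 981, 1334, 1149 and 1196 CPM to 1809, 1466 and 2681 CPM (log2 fold change 0.80, adjusted p = 0.0199 in the NOD fit by edgeR). Slc1a3, a glutamate transporter, rose from 3.58 to 14.9 CPM to 30.6 to 45.2 CPM, and Loxl3, a matrix cross-linking oxidase, from 12.5 to 17.1 CPM to 35.2 to 42.5 CPM. Fgl2, a fibrinogen-like protein of immune cells, rose from 67.6 to 107 CPM to 134 to 161 CPM. Itm2b, a membrane protein, rose from 889 to 1046 CPM to 1297 to 1844 CPM. Slc1a3, Loxl3, Fgl2 and Itm2b were chosen after their values were seen.

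In the list of lipid-associated and phagocytic genes, 5 of 23 tested members fell in the NOD fit and none rose, where 0.789% of all genes tested fell and 0.0972% rose. The 5 were Axl, Cd36, Trem2, Lgals1 and Lgals3. Axl, a receptor for dying cells, had 771 to 869 CPM at 8 weeks and 513 to 591 CPM at 12 weeks (log2 fold change -0.56, adjusted p = 0.00576 in the NOD fit by edgeR). Trem2, a lipid-sensing receptor, had 74.5 to 125 CPM and then 40.9 to 60.9 CPM (-0.82, adjusted p = 0.0238). Cd36, a scavenger receptor for fatty acids and oxidised lipoproteins, had 11.5 to 17.7 CPM and then 5.29 to 8.33 CPM (-1.10, adjusted p = 0.0312). In the fit of all libraries no member of this list passed. There the median log2 fold change of the 22 members with at least 5 CPM was -0.51, against -0.12 for all genes at that level.

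Cd14, the co-receptor for bacterial lipopolysaccharide, had 281, 254, 260 and 177 CPM at 8 weeks and 153, 106 and 98.5 CPM at 12 weeks (log2 fold change -0.99, adjusted p = 0.00237 in the NOD fit by edgeR). In the core macrophage list, Csf1r and Cd14 were the 2 of 21 members that fell in that fit (0.789% of all genes tested fell), and none rose. Lyz2 and Cd68, further members of that list, had overlapping groups. Per 1e+06 total reads, without trimmed-mean scaling, Lyz2 had 1720 to 2382 at 8 weeks and 1613 to 2800 at 12 weeks. Cd68 had 687 to 920 and 727 to 832.

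Other falls of the NOD fit were scattered over functions. Tgfb1, the cytokine TGF-beta, had 443 to 477 CPM at 8 weeks and 288 to 349 CPM at 12 weeks (log2 fold change -0.49, adjusted p = 0.0179 in the NOD fit by edgeR). Runx1 and Runx3, paired transcription factors of blood cells, had log2 fold changes of -0.75 and -0.56. Ifngr1, a subunit of the interferon-gamma receptor, had one of -0.67, and Il7r, the interleukin 7 receptor, of -1.36. Runx1, Runx3, Ifngr1 and Il7r were chosen after their values were seen.

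The lists of macrophage programs, described by their counts, showed few calls in the fit of all libraries, in which 0.00508% of all genes tested rose and 0.0964% fell. Chemokines had 1 rise (Cxcl13) and 1 fall (Ccl9) among 24 tested members, with a median log2 fold change of -0.35. Proteases and matrix remodelling genes had 1 fall (Mmp12) among 19, with a median of 0.07, and the core macrophage list 1 fall (Csf1r) among 21, with a median of -0.03. No member passed in the other 19 program lists.

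**Figure D4:**
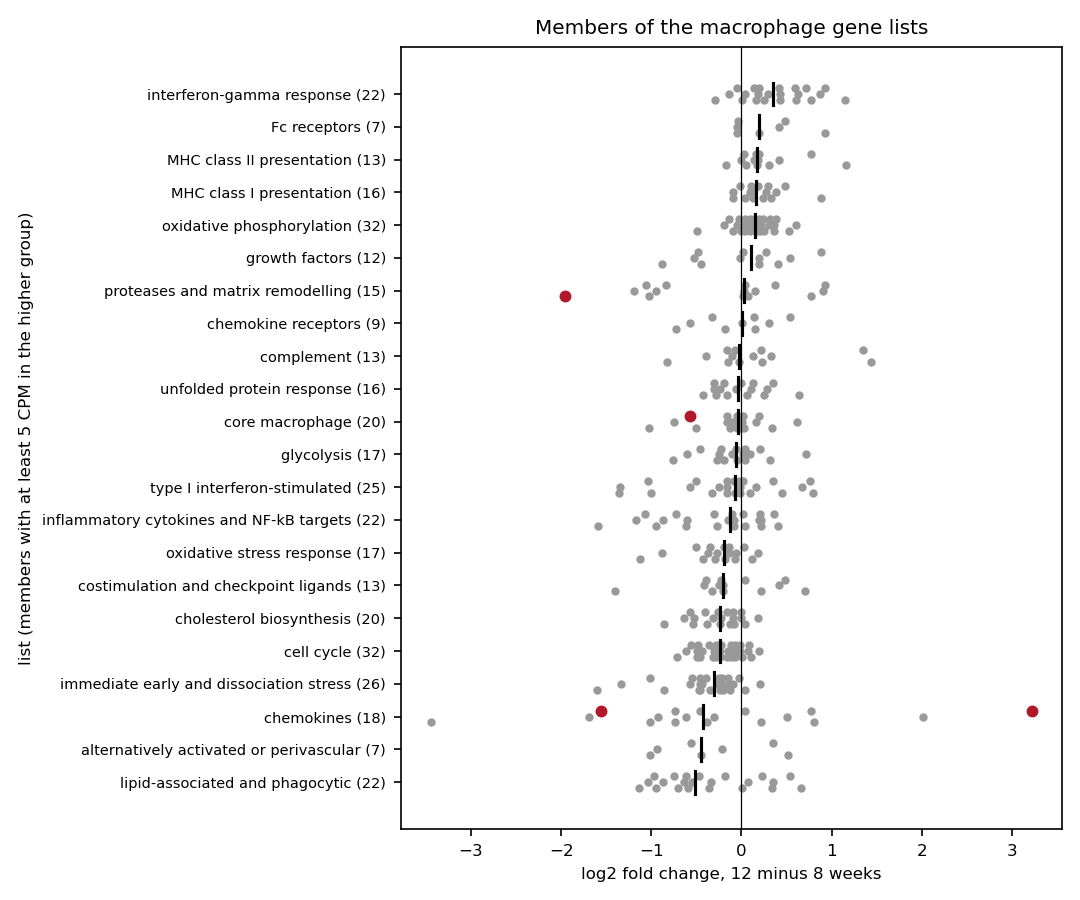
Log2 fold change, 12 minus 8 weeks, of the members of 22 macrophage gene lists with at least 5 CPM in the higher group; the number of members drawn is in parentheses, black bars are list medians and red points are the called genes. The called genes are Cxcl13 and Ccl9 among the chemokines, Mmp12 among the proteases and Csf1r in the core macrophage list.

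Of 27 genes of the interferon-gamma response, 24 had a positive log2 fold change and 3 a negative one, with a median of 0.42. The 22 members with at least 5 CPM had a median of 0.35, against -0.12 for all genes at that level. None passed in the fit of all libraries, where 1 had an unadjusted p under 0.05, and 2 of 26, Fcgr4 among them, passed in the NOD fit, where 0.0972% of all genes tested rose. The interferon-induced GTPase gene Iigp1, one member, had 18.3 to 34.7 CPM at 8 weeks and 48.5 to 87.3 CPM at 12 weeks, and its adjusted p was 1. The summed level of the list was 4059 to 5040 CPM at 8 weeks and 5497 to 7909 CPM at 12 weeks, and 1147 to 1377 CPM in B6 mice at 12 weeks. From 4 to 8 weeks 11 of the 27 members of the list rose (background 0.685%), with a median of 1.55.

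In the NOD fit 1 of 13 MHC class II members (Ctss) and 1 of 16 MHC class I members (Psmb8) rose, where 0.0972% of all genes tested rose, and none fell. The 13 members of the MHC class II list had a median log2 fold change of 0.18 and summed to 41901 to 50548 CPM at 8 weeks and 43760 to 53825 CPM at 12 weeks. Cd74, the invariant chain, was at 15648 to 19571 CPM and at 14216 to 18321 CPM, with overlapping groups. The 16 members of the MHC class I list had a median of 0.16. Of them 3, with Psmb8 described above, lay higher in every 12 week library than in every 8 week library. None lay lower in every 12 week library, so 3 of the 16 had groups that did not overlap in either direction. Across all genes tested, 17.9% had groups that did not overlap in either direction, and 8.41% had them in the lower direction. H2-K1, a class I heavy chain, was at 798 to 1061 CPM and at 1046 to 1398 CPM, with overlapping groups.

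Type I interferon-stimulated genes (26 tested) had a median of -0.05, with summed levels of 520 to 806 CPM at 8 weeks and 564 to 669 CPM at 12 weeks. Of them Siglec1, a sialic acid receptor of macrophages, passed in the NOD fit alone, with a log2 fold change of -0.96 (adjusted p = 0.0464 by edgeR).

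Inflammatory cytokines and NF-kB targets had no call in either fit among 26 tested members. Il1a, the cytokine interleukin 1 alpha, had 259, 190, 170 and 62.8 CPM at 8 weeks and 78.4, 42.7 and 48.7 CPM at 12 weeks. Tnf had 509, 549, 482 and 302 CPM and then 326, 186 and 206 CPM. Nlrp3, the sensor of an inflammasome, had 494, 476, 510 and 285 CPM and then 312, 149.5 and 126 CPM. In all 3 genes 8 week replicate 4 was the lowest of its group and lay below 12 week replicate 1, so the groups overlapped.

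Immediate early and dissociation stress genes lay mostly lower at 12 weeks without passing the test: 24 of 26 members, all with at least 5 CPM, had a negative log2 fold change, with a median of -0.31. Of all 9476 genes at that level 6072 were negative, with a median of -0.12. No member passed in the fit of all libraries; Nr4a1 passed in the NOD fit (-0.82, adjusted p = 0.0317 by edgeR). Their summed level was 19494 to 25441 CPM at 8 weeks and 20844, 12125 and 13685 CPM at 12 weeks, so 12 week replicate 1 lay within the 8 week range. Egr1, an immediate early factor, had 4654, 6684, 6430 and 5050 CPM at 8 weeks and 3445, 1778 and 1562 CPM at 12 weeks. The part of this list in the falls was not tested. The 35 cell cycle genes had a median of -0.23 with no call in either fit, and Mki67, a marker of cycling cells, was at 389 to 461 CPM and at 226 to 322 CPM.

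Markers of other cells gave no call in the fit of all libraries. Reads of Cd3e, a T cell receptor subunit, numbered 6, 8, 4 and 42 at 8 weeks and 12, 23 and 28 at 12 weeks. Cd79a, a B cell receptor subunit, had at most 3 reads in any of the 7 libraries, and the neutrophil gene S100a8 at most 1. The 16 tested T cell markers summed to 90.9 to 128 CPM at 8 weeks and 97.9 to 124 CPM at 12 weeks. The 11 B cell markers summed to 384 to 426 CPM and 317 to 508 CPM. Cd4, of the T cell list, made up most of its sum, with 71.2 to 102 and 77.8 to 87.6 reads per 1e+06 total reads. Log2 fold changes were positive in 14 of the 16 and in 9 of the 11, with medians of 1.45 and 0.69. Only 2 and 4 of these markers reached 5 CPM, and all genes under 5 CPM had a median of 0.71.

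Reads of Igkc and Jchain, of the B cell and plasma cell lists, were most numerous in 12 week replicate 1. Igkc, the kappa light chain, had 663 reads there, and 0 and 2 in the other two libraries of that age, against 1 to 17 at 8 weeks. Jchain, which joins IgM and IgA, had 64, 8 and 8 reads at 12 weeks and at most 1 at 8 weeks, and it passed in the NOD fit (adjusted p = 0.0476 by edgeR). Cxcl13 was at 1138 CPM in 12 week replicate 1 and at 1186 and 2386 CPM in the other libraries of that age. The plasma cell list as a whole did not rise. Of its 6 tested members 2 had a positive log2 fold change and 4 a negative one, with a median of -0.43. They summed to 110 to 139 CPM at 8 weeks and to 84.5 to 121 CPM at 12 weeks. The part of antibody-making cells in the level of Cxcl13 was not tested.

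Of the dendritic cell markers, Xcr1, the chemokine receptor that defines the cross-presenting subset, had 35 to 51 reads at 8 weeks and 109 to 142 reads at 12 weeks. Flt3, another marker in that list, had 31 to 68 reads and 37 to 43 reads. The 14 tested markers of conventional dendritic cells summed to 304 to 342 CPM and to 329 to 432 CPM, with no call. Of these 10 had a positive log2 fold change and 4 a negative one. Natural killer cell markers summed to 254 to 319 CPM and to 307 to 453 CPM. The sums of several lists did not overlap between the ages. Endothelial markers summed to 62.5 to 83.2 CPM and to 89.4 to 119 CPM, stromal markers to 18.9 to 30.4 CPM and to 33.1 to 36.5 CPM, and neutrophil markers to 119.5 to 144 CPM and to 148.5 to 177 CPM. Only 5 of 12 endothelial, 1 of 12 stromal and 2 of 8 neutrophil markers tested reached 5 CPM. Their median log2 fold changes were 0.42, 0.23 and -0.83, and all genes under 5 CPM had a median of 0.71. The 14 tested monocyte markers summed lower, to 658 to 835 CPM and to 514 to 621 CPM. Of these markers 7 had a positive log2 fold change and 7 a negative one. Nr4a1, which is also in the immediate early list, made up a large part of these sums. It had 393 to 503 CPM and then 184 to 304 CPM and passed in the NOD fit. The lower sum therefore does not show that the other monocyte markers fell. The 6 monocyte markers with at least 5 CPM had a median log2 fold change of 0.18. The 8 tested plasmacytoid dendritic cell markers also summed lower, to 649 to 690 CPM and to 548 to 646 CPM. Of these 4 had a positive log2 fold change and 4 a negative one. Siglech, of the plasmacytoid dendritic cell list, had 49.3 to 73.6 CPM at 8 weeks and 10.6 to 28.1 CPM at 12 weeks and passed in the NOD fit (log2 fold change -1.43, adjusted p = 0.0105 by edgeR). The part of these cells in the results above was not tested.

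Islet endocrine transcripts were the most abundant of the other-cell lists. The 18 markers summed to 4391 to 5545 CPM at 8 weeks and 2473 to 3816 CPM at 12 weeks, without overlap, and to 289 to 643 CPM in B6 mice at 12 weeks. Ins2, an insulin gene, had 2965, 3698, 2880 and 3210 CPM at 8 weeks and 2552, 1510 and 2006 CPM at 12 weeks (log2 fold change -0.66 ± 0.50, adjusted p = 1, edgeR). Ins1 had a log2 fold change of -0.74 ± 0.51 (adjusted p = 0.999). The 2 genes are near copies, so reads could be split between them. Whether these reads were free RNA, engulfed material or adhering cells was not tested.

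**Figure D5:**
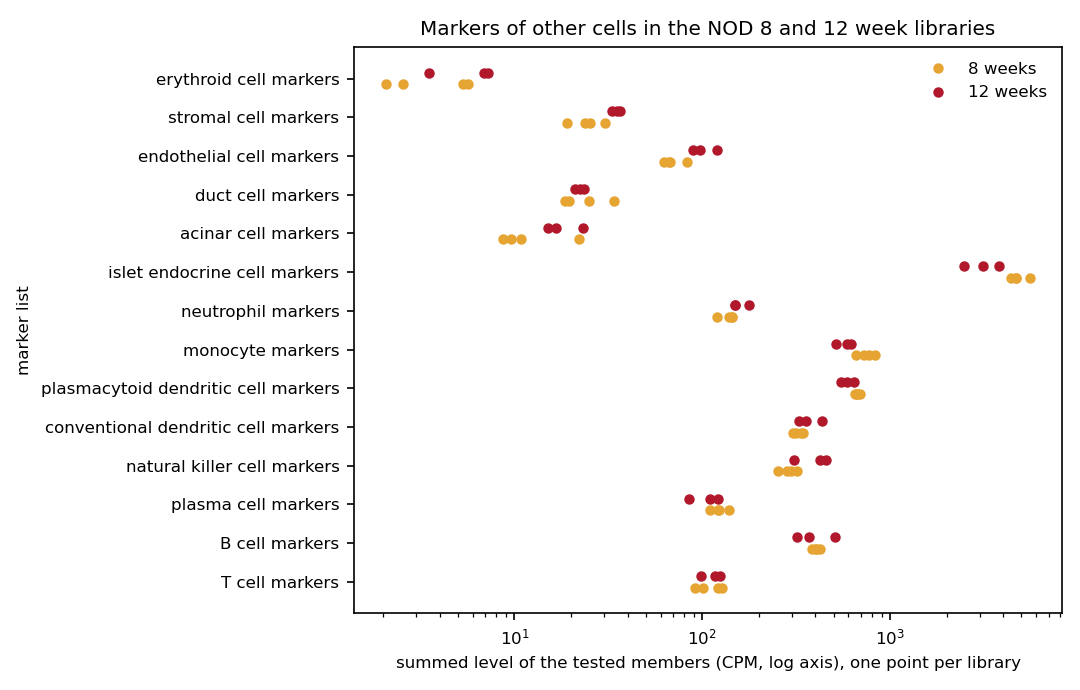
Summed level of the tested members of 14 marker lists of other cells, 1 point per library, at 8 weeks (orange) and 12 weeks (red), in CPM on a log axis. Islet endocrine markers are the highest list and lie lower at 12 weeks. T and B cell sums overlap between the ages, though 14 of 16 and 9 of 11 members had a positive log2 fold change.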

How the data were processed

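The authors deposited raw counts per gene for the series. The tools STAR, HTSeq and DESeq2 and the builds mm10 and GRCm38 are named in the submitters' processing notes; versions and parameters are not given in the sources used here. NOD reads counted on a C57BL/6 reference can be undercounted where the strains differ. Of 41092 lines in the deposited count table, 534 repeats of 286 gene IDs were removed, leaving 40558 genes, of which 40340 had a GENCODE M21 symbol. Counts were fitted in R 4.3.3 with edgeR 4.0.16 (filterByExpr with a minimum count of 10 and minimum total of 15, TMM scaling, one mean per group, robust quasi-likelihood test, Benjamini-Hochberg adjustment at 0.05). All 26 libraries shared one estimate of spread. CPM values use TMM-scaled library sizes. On simulated counts for this comparison, with 50 genes at each fold size among 18120 genes, 8, 23, 31 and 41 were recovered at 2-fold, 4-fold, 8-fold and 16-fold, with 3 false calls.

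Alternatives were RLE and upper-quartile scaling, other filters, DESeq2 1.42.0, limma 3.58.1 (voom with sample weights), a replicate block, other sets of libraries, a minimum log2 fold change of 1, and leaving out each library. Named genes were called genes with at least 5 CPM in the higher group and no overlap (the 12 largest rises and falls and the 5 smallest adjusted p in each direction), up to 4 members of each list by adjusted p, and check genes; others are said to be chosen after their values were seen. The members and lists were chosen with earlier results of these data known. Motifs were searched on both strands in RefSeq promoters (GRCm38.p6); the TATA box was added after the others. Depth sets the limit: 3 reads are taken as what a count of 0 allows. A few genes are not reported here.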

Additional observations from a re-analysis of the deposited data

Results flagged for a closer look

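In 7 of the 122 genes looked at, 1 of the 4 libraries at 8 weeks lay far from the other 3 by Dixon's test with a critical value of 0.829; chance flags about 1 in 20 such groups. In replicate 4 the low ones were Nlrp3 at 284.7 CPM (the others 476 to 510) and Nfkbiz at 504.8 CPM (790 to 823). The high ones in replicate 4 were Cd3e at 3.436 CPM (0.361 to 0.708), Ocstamp at 37.06 CPM (30.2 to 31.2) and Igkc at 1.391 CPM (0.0902 to 0.307). H2-Oa, a class II accessory gene, was high in replicate 2 at 12.39 CPM (5.81 to 6.66), and the acinar gene Prss2 in replicate 1 at 3.277 CPM (0 to 0.531).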

How the results depend on the processing

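The count of 20 genes (1 higher, 19 lower) was 14 with RLE scaling, 29 without a filter, 15 with a stricter filter and 17 with a replicate block. It was 11 with upper-quartile scaling (2 higher, 9 lower), 54 with DESeq2 (14 and 40), 1959 with limma-voom (1397 and 562), 728 with the 2 compared groups alone (362 and 366), 146 with the NOD libraries only (16 and 130), 64 without the B6 4 week libraries (6 and 58) and 1 with a minimum log2 fold change of 1. With each library left out it ranged from 4 to 20; it was 4 and 5 without 12 week replicates 3 and 2, and 8, 13 and 9 without 8 week replicates 1, 2 and 3. Cxcl13 was called in every one of these fits. All 19 falls were also called with the compared groups alone, with the NOD libraries only and with limma-voom; 18 were with DESeq2, which gave Hdac9 no adjusted p. Over all settings the called genes kept their direction; in 116 of 359 gene-by-setting results the call was lost. The cause of these differences was not tested.

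From 4 to 8 weeks 169 genes were called (135 higher, 34 lower), 355 with DESeq2, 1426 with limma-voom, 1228 with the compared groups alone, 928 with the NOD libraries only, 500 without the B6 4 week libraries and 16 with a minimum log2 fold change of 1; leaving out each library gave 103 to 137 and a replicate block 153.

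The labels do not say that replicate numbers pair the samples. Deviations of same-numbered libraries at 8 and 12 weeks correlated at 0.0184, -0.0546 and 0.0624 across genes, and not every library correlated best with its own number. Such small correlations, taken from group means of 3 and 4 libraries, show no pairing and cannot exclude one. The median log2 fold change of all genes tested was 0.08 (RLE scaling 0.19, upper-quartile scaling 0.18). Depth limits genes of few reads: the 10227 genes under 5 CPM gave no call.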

Other observations

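Fkbp5, a target of the glucocorticoid receptor, had 81.4, 93.6, 113 and 169 CPM at 8 weeks and 26.7, 19.9 and 19.8 CPM at 12 weeks. The groups did not overlap, and the log2 fold change was -2.37 with an adjusted p of 0.098 by edgeR. At 4 weeks Fkbp5 ranged from 26.6 to 158 CPM, so libraries of one age differed widely. St6galnac2, a sialyltransferase, had 170 to 241 CPM at 8 weeks and 64.3 to 81.4 CPM at 12 weeks, and 1.95 to 13.8 CPM in B6 mice at 12 weeks; it passed in the fit of the NOD libraries (adjusted p = 0.0016 by edgeR) and had an adjusted p of 0.843 in the fit of all libraries. Thbs1, a matrix protein that activates TGF-beta, had 16.8 to 25.0 CPM at 8 weeks and 2.56 to 10.04 CPM at 12 weeks (adjusted p = 0.00448 in the NOD fit). Nav3, a microtubule-binding protein, had 0.797 to 1.43 CPM and then 7.01 to 10.5 CPM (adjusted p = 0.00615 in the NOD fit). These genes were chosen after their values were seen.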
